A study of Mus musculus with 16 samples.

Results

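The 9 genes described here encode laminin chains and the proteins laid down with them in basement membranes. They are Lama1, Lama5, Lamb1, Lamb2, Lamc1, Nid1, Nid2, Hspg2 and Sparc, taken by name and matched to the arrays through the RefSeq accession that the scanner files give for each probe. These 9 genes carried 13 of the 55681 probes and are 9 of the 20972 genes named on the array, of which 15517 were tested. All 9 genes passed the filter on dim signal. Every one of the 13 probes was well above background on all 16 arrays.

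A laminin is a cross-shaped secreted protein built from 1 alpha, 1 beta and 1 gamma chain. Laminins assemble into a sheet under epithelia by joining through the ends of their short arms and bind cell-surface integrins and dystroglycan through the end of the alpha chain. Nidogens link the laminin sheet to type IV collagen, perlecan adds heparan sulfate chains, and Sparc is a collagen-binding glycoprotein that acts on how matrix is laid down. In the mouse embryo a basement membrane separates epiblast from primitive endoderm around implantation, and laminins are widely used as a culture surface for pluripotent cells.

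Total RNA labelled with Cy3 was hybridised to 16 single-colour Agilent arrays, 1 for each of 16 pluripotent lines of strain 129/Ola mice, 4 lines a group. The 2iSB_LIF lines (passages 17 to 24) came from pre-implantation embryos and were kept in 2i, a pair of kinase inhibitors, with SB431542, an inhibitor of Activin and Nodal type I receptors, and LIF, and the 2i_LIF lines (passages 22 to 24) came from the same stage and were kept in 2i and LIF; the labels call both ground state. The EpiSC lines (passages 24 to 28), called primed, came from the epiblast of E6.5 embryos and were kept in Activin A and bFGF. The LIF_serum lines (passages 23 to 26), called naive, came from pre-implantation embryos and were kept in LIF and serum. All 16 lines share the strain, and in EpiSC the stage of the embryo differs together with the medium, so the 2 cannot be told apart. Nothing in the labels says whether lines of a group came from separate embryos or whether feeder cells were used, so p-values measure the spread between these lines only.

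Signals are given as log2 of the processed intensity less the array's 75th percentile, so 0 is the 75th percentile of that array and 1 unit is a 2-fold difference. Between 51.5% and 63.6% of probes were well above background per array. Arrays of a group correlated at 0.955 or more, and arrays of different groups at up to 0.988. The arrays lay on 2 slides: 3 of the 4 2iSB_LIF arrays, 3 of the 4 2i_LIF arrays and 2 of the 4 LIF_serum arrays were on slide 1, and all 4 EpiSC arrays were on slide 2, so that values on slide 2 rest on 1 array of each ground-state group, with the spread taken from the other groups. LIF_serum arrays 1 and 2 carry the code LS and lay on slide 1, and arrays 3 and 4 carry the code LSFF and lay on slide 2, so code and slide cannot be told apart within LIF_serum, and the labels do not say what LSFF means. Pou5f1, Sox2, Nanog, Sall4 and Utf1, genes of pluripotent cells, were well above background on all 16 arrays. Zfp42, a naive marker, averaged 6.84 in 2iSB_LIF, 6.77 in 2i_LIF, -2.04 in EpiSC and 6.18 in LIF_serum. Fgf5, a primed marker, averaged -5.75, -5.11, 3.84 and -1.57 in the same order of groups. It was well above background on 1 of 4 2iSB_LIF arrays and 2 of 4 2i_LIF arrays. By the threshold given below, 4 of 5 naive genes were called lower in EpiSC than in LIF_serum. Of 5 primed genes 2 were called higher there, with a median log2 difference of -0.41. Otx2, Dnmt3b and Cldn6 averaged lower in EpiSC (3.8, 6.39 and 0.3) than in LIF_serum (4.66, 6.8 and 1.33). In each ground-state group 4 of 5 primed genes were called lower than in EpiSC.

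A gene was called where limma's Benjamini-Hochberg adjusted p over all 15517 genes was under 0.05 and the difference was at least 2-fold. Against EpiSC, the 2i_LIF lines had 2 of the 9 genes called higher, Lama1 and Nid2, and 4 called lower, Lama5, Lamb1, Hspg2 and Sparc, where 37.4% of all genes tested were called, 16.8% higher and 20.6% lower. The 2iSB_LIF lines had the same 6 genes called in the same directions against EpiSC, where 36.3% of all genes were called, 16.2% higher and 20.1% lower. Against LIF_serum, 3 genes were called lower in 2i_LIF, Lama5, Lamb1 and Hspg2, beside 18.3% of all genes called, 6.25% higher and 12.1% lower. Also 3 were called lower in 2iSB_LIF against LIF_serum, Lama5, Lamb1 and Sparc, beside 20.1% called, 6.81% higher and 13.3% lower. EpiSC against LIF_serum had 2 of 9 called, Lama1 and Nid2, both lower, beside 33.6% of all genes called and 15.6% called lower. Between 2iSB_LIF and 2i_LIF 0 of 9 were called by limma, beside 0.0838% of all genes (13 genes), and 0 of 9 had an unadjusted p under 0.05. Comparisons that share a group share its arrays, so their results are not independent. With bulk RNA, fewer cells of a type and less RNA per cell cannot be told apart in any of these differences. Levels are compared between groups for 1 probe at a time and never between genes, since probes differ in how strongly they bind.

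**Figure D1:**
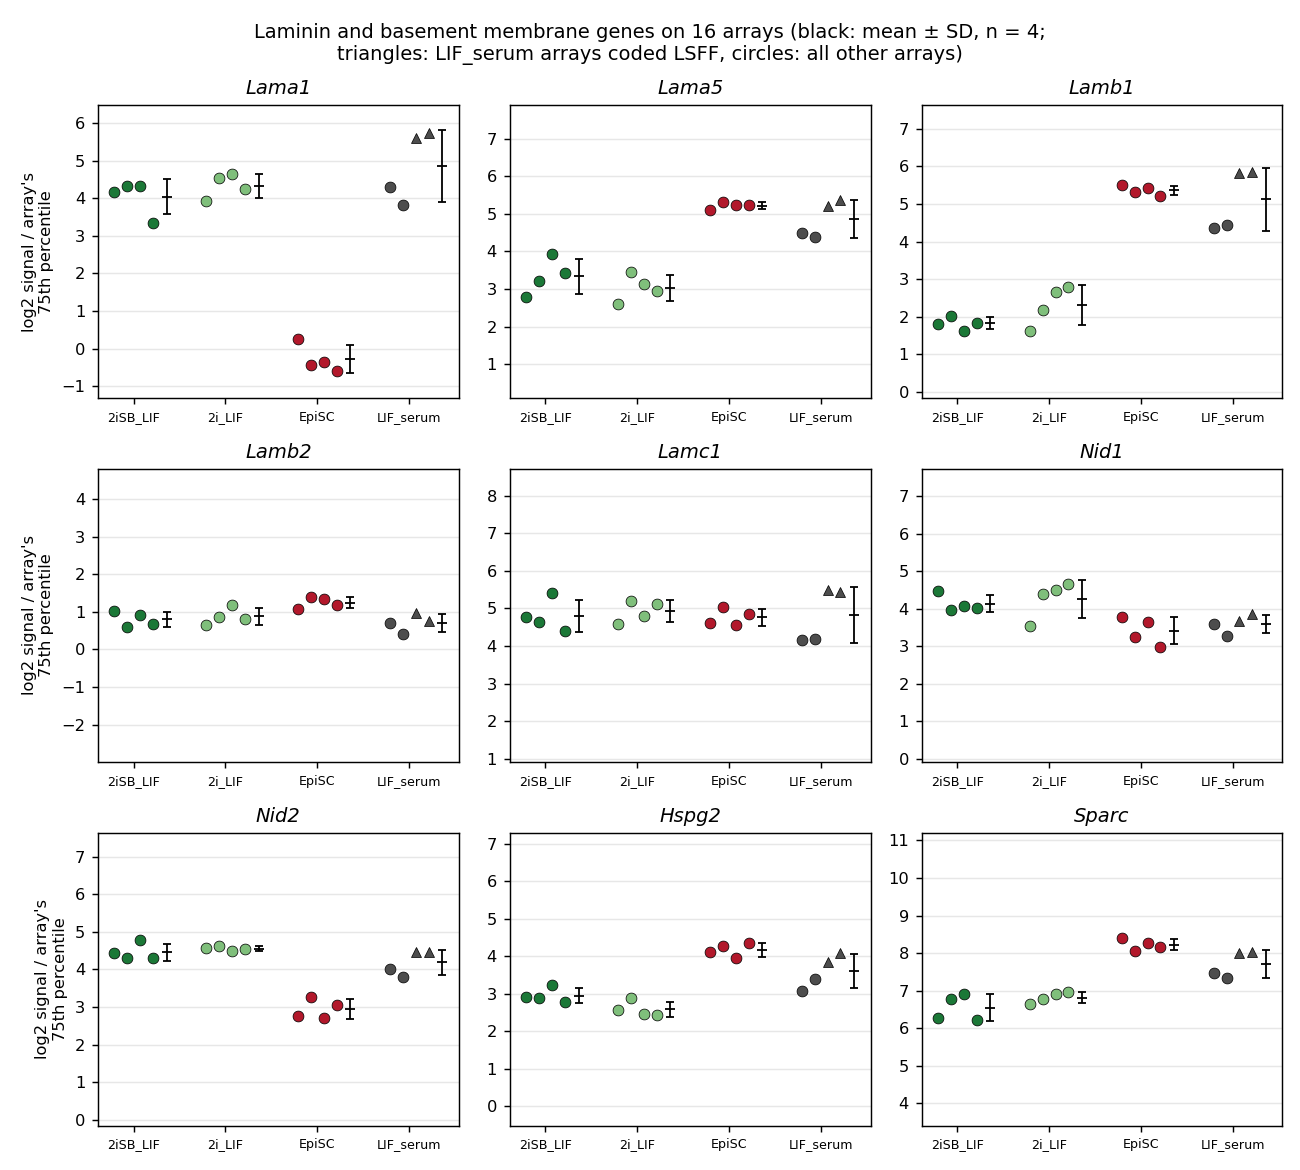
Log2 signal less the array's 75th percentile (vertical axis) of each of the 9 genes on every array, by group (horizontal axis), with the group mean and SD (n = 4); triangles are the LIF_serum arrays coded LSFF. The 4 EpiSC arrays lie far below all others for Lama1 (at most 0.26, against at least 3.35 elsewhere), and the ground-state arrays lie below all others for Lama5, Lamb1 and Sparc.

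Lama1 and Nid2, called higher in both ground-state groups against EpiSC, had no matching promoter entry. The 4 genes called lower in both are shown here by the 250 bases before their start. RefSeq promoter entries (build GRCm38.p6) matched 6 of the 9 genes, and these 4 are printed 5′ to 3′ on the gene's own strand, with GGGCGG, the core letters of the GC box, or its complement CCGCCC, in capitals.
Lama5, chr2:180225860-180226109, minus strand: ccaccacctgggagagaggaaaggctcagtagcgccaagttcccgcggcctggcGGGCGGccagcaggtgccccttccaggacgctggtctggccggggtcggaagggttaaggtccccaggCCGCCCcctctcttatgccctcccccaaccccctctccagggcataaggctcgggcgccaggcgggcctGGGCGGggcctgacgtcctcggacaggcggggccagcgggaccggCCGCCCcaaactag
Lamb1, chr12:31265043-31265292, plus strand: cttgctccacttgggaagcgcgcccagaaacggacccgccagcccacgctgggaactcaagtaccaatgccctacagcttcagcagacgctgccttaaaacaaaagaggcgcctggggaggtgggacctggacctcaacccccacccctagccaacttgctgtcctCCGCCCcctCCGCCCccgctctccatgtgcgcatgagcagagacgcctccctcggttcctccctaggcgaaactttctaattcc
Hspg2, chr4:137468553-137468802, plus strand: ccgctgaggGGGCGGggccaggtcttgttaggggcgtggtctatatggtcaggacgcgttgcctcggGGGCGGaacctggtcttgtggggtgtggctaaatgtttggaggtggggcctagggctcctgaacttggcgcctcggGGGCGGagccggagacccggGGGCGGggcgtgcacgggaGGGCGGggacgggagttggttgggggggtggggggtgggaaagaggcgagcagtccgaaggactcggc
Sparc, chr11:55420081-55420330, minus strand: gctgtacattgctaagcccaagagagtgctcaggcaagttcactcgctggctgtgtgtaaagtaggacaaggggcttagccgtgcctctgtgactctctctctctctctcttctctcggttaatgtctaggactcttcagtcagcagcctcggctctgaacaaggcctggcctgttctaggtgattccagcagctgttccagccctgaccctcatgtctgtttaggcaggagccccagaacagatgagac
Counted on both strands, the GC box letters occurred 4 times before Lama5, 2 times before Lamb1, 5 times before Hspg2 and 0 times before Sparc, and 32.7% of 32851 RefSeq windows of the same length held at least 1. The G and C content of these windows was 72.4% for Lama5, 62% for Lamb1, 70% for Hspg2 and 54% for Sparc. Of the other genes with an entry, Nid1 held 1 such match (64.4% G and C) and Lamb2 held 0 (43.6%). The other motifs searched, on both strands, were AGATAA (held by 9.99% of all windows), TGATAA (7.94%), ACAAAG (16.5%), ATTGTT (9.42%) and TGAGTCA (4.46%), and the 6 windows held 0 of them. None of the 6 motifs was in all 4 printed windows. A match to a few letters is a description of the sequence and not a binding site.

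The alpha chain decides which receptors a laminin binds, and the 2 alpha chains went opposite ways between EpiSC and the ground-state lines. Lama1 encodes the alpha chain of the first laminin of the embryo. Its log2 signal was 4.16, 4.33, 4.33 and 3.35 on the 2iSB_LIF arrays (4.04 ± 0.47, mean ± SD, n = 4) and 3.92, 4.54, 4.64 and 4.24 on the 2i_LIF arrays (4.34 ± 0.33). It was 0.26, -0.43, -0.36 and -0.59 on the EpiSC arrays (-0.28 ± 0.37) and 4.31, 3.81, 5.61 and 5.75 on the LIF_serum arrays (4.87 ± 0.96). Every EpiSC array lay below every array of the other 3 groups, while the 2iSB_LIF, 2i_LIF and LIF_serum arrays overlapped. Lama1 was 20.0-fold higher in 2iSB_LIF than in EpiSC (log2 difference 4.32, SE 0.39, limma adjusted p = 2.3e-07) and 24.5-fold higher in 2i_LIF than in EpiSC (4.61, SE 0.39, adjusted p = 1.2e-07). In EpiSC it was 35.5-fold lower than in LIF_serum (-5.15, SE 0.39, adjusted p = 6.9e-08). With slide as a block these log2 differences were 4.86, 5.16 and -5.51, and among slide 2 arrays alone they were 4.61, 4.52 and -5.96. In order of level Lama1 ran LIF_serum, 2i_LIF, 2iSB_LIF, EpiSC, and the 3 highest did not differ past the threshold: the difference was -0.83 for 2iSB_LIF against LIF_serum (adjusted p = 0.11) and -0.54 for 2i_LIF against LIF_serum (adjusted p = 0.32, 95% interval -1.37 to 0.30). That order within the upper 3 rested on which LIF_serum arrays were used. Against the LSFF arrays alone Lama1 was called lower in 2iSB_LIF (-1.64) and in 2i_LIF (-1.35), and against the LS arrays alone it differed by -0.02 and 0.27 and was not called.

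Lama5 encodes the alpha chain of the most widespread laminin of later tissues, which the inner cell mass also makes. It read 2.79, 3.21, 3.93 and 3.42 in 2iSB_LIF (3.34 ± 0.47) and 2.61, 3.45, 3.13 and 2.96 in 2i_LIF (3.03 ± 0.35). It read 5.10, 5.31, 5.25 and 5.23 in EpiSC (5.22 ± 0.09) and 4.50, 4.38, 5.22 and 5.38 in LIF_serum (4.87 ± 0.50). All 8 ground-state arrays lay below all 8 EpiSC and LIF_serum arrays, while 2iSB_LIF overlapped 2i_LIF and EpiSC overlapped LIF_serum. Lama5 was 3.70-fold lower in 2iSB_LIF than in EpiSC (-1.89, SE 0.27, adjusted p = 2.6e-05) and 4.55-fold lower in 2i_LIF than in EpiSC (-2.19, SE 0.27, adjusted p = 5.7e-06). Against LIF_serum it was 2.89-fold lower in 2iSB_LIF (-1.53, adjusted p = 0.00058) and 3.56-fold lower in 2i_LIF (-1.83, adjusted p = 0.00017). With slide as a block the differences from EpiSC were -1.47 and -1.77. Within slides the differences were -1.37 (slide 2) and -1.30 (slide 1) for 2iSB_LIF against LIF_serum and -2.34 and -1.38 for 2i_LIF against LIF_serum. Both were called against the LS arrays alone (-1.10 and -1.40) as well as the LSFF arrays alone (-1.96 and -2.26). EpiSC and LIF_serum, the upper neighbours in the order EpiSC, LIF_serum, 2iSB_LIF, 2i_LIF, differed by 0.35 (adjusted p = 0.28), a difference that was -0.08 against the LSFF arrays and 0.78 against the LS arrays.

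The beta chains each form a short arm of the cross and, with gamma, the coiled coil that the alpha chain joins. Lamb1, the embryonic beta chain, had the deepest fall among the 9 genes in the ground-state lines. It read 1.81, 2.01, 1.62 and 1.84 in 2iSB_LIF (1.82 ± 0.16) and 1.61, 2.18, 2.66 and 2.78 in 2i_LIF (2.31 ± 0.53). In EpiSC it read 5.51, 5.31, 5.42 and 5.22 (5.37 ± 0.13), and in LIF_serum 4.37, 4.43, 5.83 and 5.85 (5.12 ± 0.83). The highest ground-state array, at 2.78, was below the lowest of the other 8, at 4.37. Lamb1 was 11.7-fold lower in 2iSB_LIF than in EpiSC (-3.55, SE 0.34, adjusted p = 4.1e-07) and 8.34-fold lower in 2i_LIF than in EpiSC (-3.06, SE 0.34, adjusted p = 2e-06). Against LIF_serum it was 9.85-fold lower in 2iSB_LIF (-3.30, adjusted p = 7.6e-06) and 7.03-fold lower in 2i_LIF (-2.81, adjusted p = 3.5e-05). With slide as a block the differences from EpiSC were -3.03 and -2.54. On slide 2 alone the 2 differences from LIF_serum were -4.22 and -3.06, and on slide 1 alone -2.52 and -2.25. EpiSC and LIF_serum did not differ past the threshold (0.25, adjusted p = 0.56), and the sign turned with the LIF_serum arrays used, 0.96 against the LS arrays and -0.47 against the LSFF arrays. Lamb1 was the gene for which the ground-state groups stood apart most, by -0.49 for 2iSB_LIF against 2i_LIF, with a 95% interval of -1.20 to 0.23.

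Lamb2, the beta chain of nerve-muscle junctions and the kidney filter, varied little. Its log2 signal was 1.01, 0.59, 0.91 and 0.68 in 2iSB_LIF (0.80 ± 0.20) and 0.66, 0.87, 1.18 and 0.80 in 2i_LIF (0.88 ± 0.22). It was 1.07, 1.40, 1.34 and 1.17 in EpiSC (1.25 ± 0.15) and 0.70, 0.41, 0.98 and 0.75 in LIF_serum (0.71 ± 0.24). The EpiSC arrays were above every 2iSB_LIF and LIF_serum array and overlapped 1 array of 2i_LIF. No comparison reached 2-fold: the difference was -0.45 for 2iSB_LIF against EpiSC (SE 0.16, adjusted p = 0.028), -0.37 for 2i_LIF against EpiSC (adjusted p = 0.064) and 0.54 for EpiSC against LIF_serum (adjusted p = 0.011). With arrays centred on their median in place of the 75th percentile, the last was 1.07 and called. The neighbours 2i_LIF, 2iSB_LIF and LIF_serum differed by 0.17 or less.

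Lamc1 encodes the gamma chain shared by most laminins, without which mouse embryos form no basement membrane. It read 4.76, 4.64, 5.40 and 4.40 in 2iSB_LIF (4.80 ± 0.43) and 4.58, 5.21, 4.80 and 5.12 in 2i_LIF (4.93 ± 0.29). It read 4.60, 5.04, 4.57 and 4.85 in EpiSC (4.77 ± 0.22) and 4.15, 4.20, 5.48 and 5.45 in LIF_serum (4.82 ± 0.75). All 4 groups overlapped, their means lay within 0.16 of each other, and the widest spread was inside LIF_serum, where the LSFF arrays were above and the LS arrays below every array of the other groups. The 95% intervals were -0.63 to 0.71 for 2iSB_LIF against EpiSC, -0.51 to 0.83 for 2i_LIF against EpiSC and -0.72 to 0.62 for EpiSC against LIF_serum. They were -0.69 to 0.65 for 2iSB_LIF against LIF_serum and -0.56 to 0.78 for 2i_LIF against LIF_serum. In the main fit a difference of 2-fold therefore lies outside each of these 5 intervals. Size and sign depended on the scaling, on the slide and on the LIF_serum arrays: the differences of 2iSB_LIF and 2i_LIF from EpiSC were -0.48 and -0.38 under median centring and 0.66 and 0.79 with slide as a block. Intervals under those settings are not given, so the statement on 2-fold holds for the main fit alone.

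The nidogens bind the gamma chain and hold laminin to type IV collagen. Nid2 followed Lama1 in direction. It read 4.43, 4.30, 4.78 and 4.31 in 2iSB_LIF (4.46 ± 0.22) and 4.57, 4.63, 4.49 and 4.53 in 2i_LIF (4.55 ± 0.06). In EpiSC it read 2.77, 3.27, 2.70 and 3.06 (2.95 ± 0.27), and in LIF_serum 4.01, 3.81, 4.47 and 4.45 (4.18 ± 0.33). All EpiSC arrays were below all others, and the 2i_LIF arrays were just above the highest LIF_serum array. Nid2 was 2.84-fold higher in 2iSB_LIF than in EpiSC (1.50, SE 0.18, adjusted p = 4.7e-06) and 3.04-fold higher in 2i_LIF than in EpiSC (1.60, SE 0.18, adjusted p = 2.5e-06). It was 2.35-fold lower in EpiSC than in LIF_serum (-1.23, SE 0.18, adjusted p = 4.8e-05). With slide as a block the differences were 1.76, 1.86 and -1.40. Median centring, which moved the median of all genes by about the same amount for every comparison with EpiSC, brought Nid2 to 0.98 for 2iSB_LIF against EpiSC and -0.69 for EpiSC against LIF_serum, both under the threshold of 1, and to 1.06 for 2i_LIF against EpiSC, which stayed called. Against the LS arrays alone the EpiSC difference was -0.96 and not called. The neighbours in the order 2i_LIF, 2iSB_LIF, LIF_serum differed by 0.37 or less.

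Nid1 had smaller differences. It read 4.46, 3.97, 4.06 and 4.02 in 2iSB_LIF (4.12 ± 0.22) and 3.53, 4.39, 4.49 and 4.65 in 2i_LIF (4.27 ± 0.50). It read 3.77, 3.24, 3.65 and 2.99 in EpiSC (3.41 ± 0.36) and 3.58, 3.28, 3.68 and 3.85 in LIF_serum (3.59 ± 0.24). The 2iSB_LIF arrays were above every EpiSC and LIF_serum array, and 2i_LIF array 1 alone reached down into both. The differences were 0.71 for 2iSB_LIF against EpiSC (SE 0.24, adjusted p = 0.022) and 0.85 for 2i_LIF against EpiSC (adjusted p = 0.0077), neither 2-fold. They were 0.53 (adjusted p = 0.11) and 0.67 (adjusted p = 0.048) against LIF_serum. With slide as a block the difference of 2i_LIF from EpiSC was 1.05 and called, and on slide 2, with 1 array of 2i_LIF, it was 1.24. Of the 3 Nid1 probes the dimmest showed no such difference, -0.07 for 2iSB_LIF and 0.00 for 2i_LIF against EpiSC, and turned the sign of EpiSC against LIF_serum, 0.28 against -0.18 for the brightest.

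Hspg2 encodes perlecan, the heparan sulfate proteoglycan that binds laminin and growth factors. It read 2.91, 2.90, 3.23 and 2.78 in 2iSB_LIF (2.95 ± 0.19) and 2.56, 2.88, 2.46 and 2.43 in 2i_LIF (2.58 ± 0.20). In EpiSC it read 4.10, 4.26, 3.95 and 4.35 (4.17 ± 0.18), and in LIF_serum 3.07, 3.40, 3.85 and 4.08 (3.60 ± 0.45). EpiSC arrays were above all ground-state arrays, and LIF_serum arrays overlapped EpiSC and 2iSB_LIF but not 2i_LIF. Perlecan RNA was 2.32-fold lower in 2iSB_LIF than in EpiSC (-1.21, SE 0.20, adjusted p = 0.00013) and 3.00-fold lower in 2i_LIF than in EpiSC (-1.58, SE 0.20, adjusted p = 9.4e-06). The 2iSB_LIF difference was -0.96 with slide as a block and -0.94 on slide 2, both under 2-fold, and -1.73 under median centring. Against LIF_serum, Hspg2 was 2.03-fold lower in 2i_LIF (-1.02, adjusted p = 0.0018), and the 2iSB_LIF difference of -0.65 was not called (adjusted p = 0.023). The 2i_LIF call was at the edge of the threshold. It was lost against the LS arrays alone (-0.65), with slide as a block (-0.93), on slide 1 (-0.60), with the second Hspg2 probe (-0.86), with the mean of the Hspg2 probes (-0.94), with normexp background correction (-0.95) and with passage number as a covariate (-0.95). EpiSC was above LIF_serum by 0.56 (adjusted p = 0.029), under 2-fold, and by 1.10 under median centring, which was called.

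Sparc, which binds collagens and is also made in large amounts by parietal endoderm, was detected strongly on every array. It read 6.27, 6.79, 6.92 and 6.22 in 2iSB_LIF (6.55 ± 0.36) and 6.64, 6.77, 6.90 and 6.95 in 2i_LIF (6.81 ± 0.14). It read 8.39, 8.06, 8.27 and 8.16 in EpiSC (8.22 ± 0.14) and 7.46, 7.34, 8.01 and 8.03 in LIF_serum (7.71 ± 0.36). The groups stood in 3 steps without overlap, EpiSC above LIF_serum and LIF_serum above the ground-state arrays, which overlapped each other. Sparc was 3.18-fold lower in 2iSB_LIF than in EpiSC (-1.67, SE 0.20, adjusted p = 4.3e-06) and 2.65-fold lower in 2i_LIF than in EpiSC (-1.41, SE 0.20, adjusted p = 2.4e-05). Against LIF_serum it was 2.23-fold lower in 2iSB_LIF (-1.16, adjusted p = 0.00051) and 1.86-fold lower in 2i_LIF (-0.90, adjusted p = 0.0036), the second not called. The 2iSB_LIF call was lost against the LS arrays alone (-0.85), on slide 1 (-0.97), with quantile normalization (-0.93) and in the authors' deposited table (-0.95). EpiSC was above LIF_serum by 0.51 (adjusted p = 0.041), which reached 1.05 and was called under median centring. With slide as a block the differences from EpiSC were -1.33 for 2iSB_LIF and -1.07 for 2i_LIF. The second Sparc probe gave -1.81 for 2iSB_LIF and -1.53 for 2i_LIF against EpiSC.

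**Figure D2:**
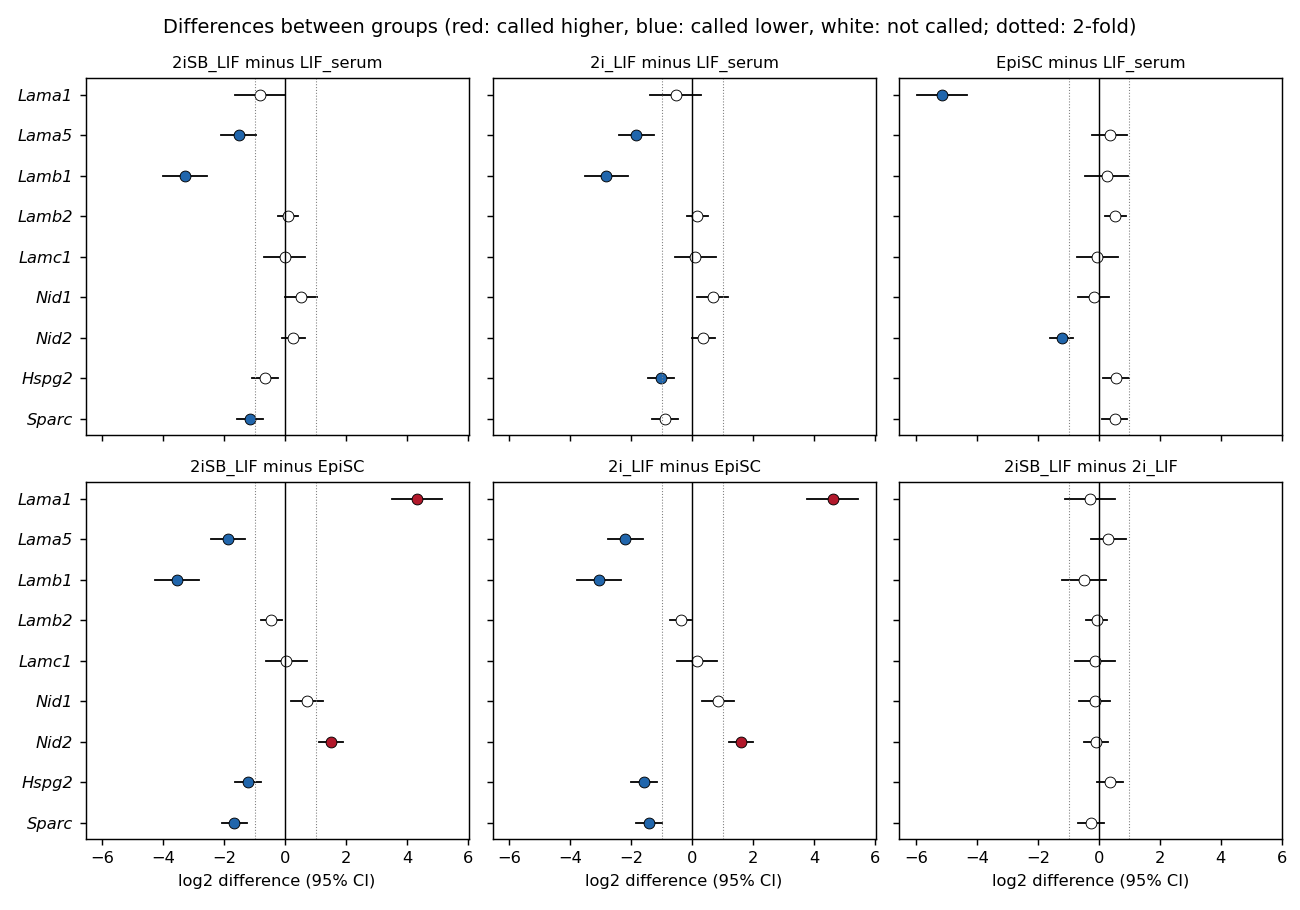
Log2 difference between groups (horizontal axis, first group minus second, with the 95% interval) of the 9 genes in the 6 comparisons; red marks genes called higher in the first group, blue called lower and white not called. In both comparisons with EpiSC, Lama1 and Nid2 are to the right of 0 and Lama5, Lamb1, Hspg2 and Sparc to the left, and in 2iSB_LIF against 2i_LIF all 9 intervals cover 0.

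Over the 9 genes the median log2 difference was -0.45 for 2iSB_LIF and -0.37 for 2i_LIF against EpiSC, where the median of all genes was -0.04 in each. It was -0.65 and -0.54 against LIF_serum, where all genes stood at 0.02 in each. For EpiSC against LIF_serum it was 0.25, beside 0.07 over all genes, and for 2iSB_LIF against 2i_LIF it was -0.13, beside -0.01. The arrays did not overlap for 8 of the 9 genes in 2iSB_LIF against EpiSC and for 6 in 2i_LIF against EpiSC, where 54.2% and 55.2% of all genes did not. Against LIF_serum the arrays did not overlap for 4 genes in 2iSB_LIF and 5 in 2i_LIF, where 29.6% and 27.2% of all genes did not. For EpiSC against LIF_serum it was 4 genes, where 58.8% of all genes did not overlap, and for 2iSB_LIF against 2i_LIF it was 0 genes, where 2.15% of all genes did not. The scaling touches every comparison with EpiSC. Median centring moved the median of all genes from 0.07 to 0.61 for EpiSC against LIF_serum and from -0.04 to -0.56 and -0.58 for 2iSB_LIF and 2i_LIF against EpiSC. The share of calls that were higher moved with it, from 53.5% to 75.9%, from 44.6% to 25.5% and from 45% to 25.1%. Under that scaling Lama1 was still 3.80 and 4.08 higher in 2iSB_LIF and 2i_LIF than in EpiSC, and Lamb1 differed by -4.07 and -3.60.

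Marker genes of other cell types also differed between groups. The summed signal of 20 fibroblast genes, in multiples of each array's 75th percentile, was 2.49 to 3.60 in 2iSB_LIF, 2.94 to 3.69 in 2i_LIF, 231 to 357 in EpiSC and 29.1 to 140 in LIF_serum. Of these 20 genes, 19 were called lower in each ground-state group against EpiSC, 16 and 15 were called lower in 2iSB_LIF and 2i_LIF against LIF_serum, and 17 were called higher in EpiSC than in LIF_serum. Over all genes tested, 20.1% and 20.6% were called lower in 2iSB_LIF and 2i_LIF than in EpiSC, and 13.3% and 12.1% lower than in LIF_serum. In EpiSC against LIF_serum 33.6% of all genes were called, and 53.5% of those calls were higher. On a single array 6 to 13 of the 20 genes were well above background in 2iSB_LIF and 7 to 13 in 2i_LIF. Col1a1, Col5a1, Thy1 and Pdgfrb were above background on all 8 ground-state arrays, and Dcn, Lum, Postn, Twist2 and Prrx1 on none of them. Lama5, Lamb1, Hspg2 and Sparc were lower, and Lama1 and Nid2 higher, in the ground-state groups than in EpiSC beside these lower fibroblast sums, and the part of fibroblast RNA in those differences was not tested. The 14 genes of primitive and parietal endoderm, a cell type rich in laminin, summed to 2.25 to 3.80 in 2iSB_LIF, 1.93 to 4.54 in 2i_LIF, 19.7 to 27.7 in EpiSC and 7.28 to 61.2 in LIF_serum. In EpiSC and LIF_serum these sums rested most on the keratin gene Krt19. Its log2 signal averaged -0.86 in 2iSB_LIF, -0.77 in 2i_LIF, 3.14 in EpiSC and 4.28 in LIF_serum. Sox7 and Srgn averaged lower in EpiSC (-5.42 and -2.78) than in 2iSB_LIF (-4.91 and -1.44) and 2i_LIF (-3.46 and -0.69). Of 13 tested, 8 and 9 were called lower in 2iSB_LIF and 2i_LIF than in EpiSC, 6 and 7 lower than in LIF_serum, and 6 higher and 2 lower in EpiSC than in LIF_serum. These counts are to be read beside the same shares of all genes. On a single array 9 to 12 of the 14 genes were above background in each ground-state group. Gata6, Thbd, Amn, Krt19 and Srgn were above background on all 8 of those arrays, and Dab2 on none. The 8 trophectoderm genes summed to 2.63 to 4.27 in 2iSB_LIF, 1.79 to 3.09 in 2i_LIF, 2.05 to 2.45 in EpiSC and 5.68 to 13.8 in LIF_serum. The part of endoderm and trophectoderm RNA in the differences of the 9 genes was not tested.

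**Figure D3:**
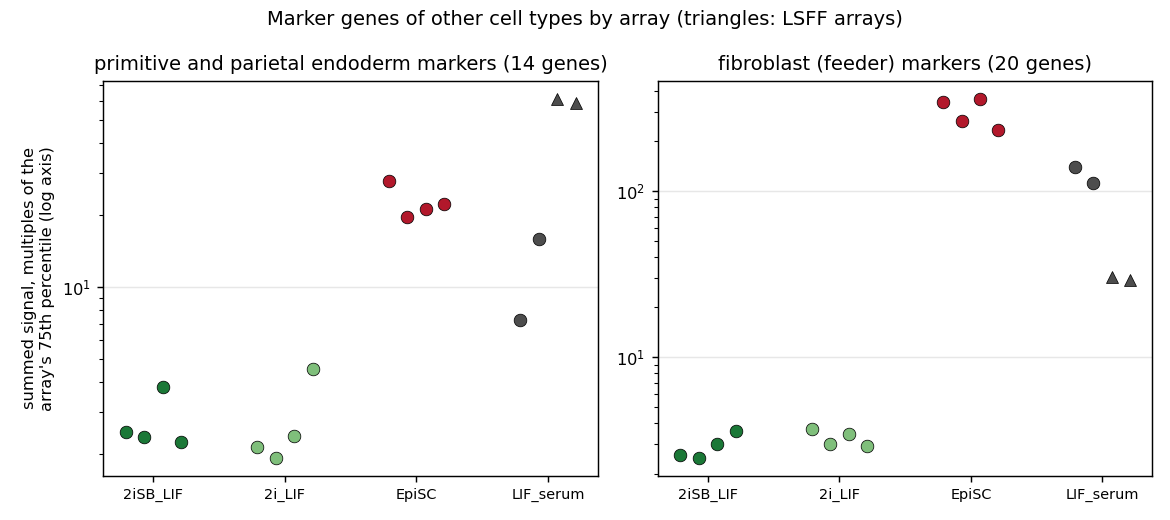
Summed signal of 14 primitive and parietal endoderm genes and 20 fibroblast genes on each array (vertical axis, logarithmic, in multiples of the array's 75th percentile), by group. Fibroblast sums are at most 3.69 on ground-state arrays and at least 231 on EpiSC arrays, and within LIF_serum the LSFF arrays are the higher ones for endoderm (61.2 and 58.8) and the lower ones for fibroblast genes (30.5 and 29.1).

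Within LIF_serum all 9 genes were higher on the LSFF arrays than on the LS arrays. The means were 5.68 against 4.06 for Lama1, 5.84 against 4.40 for Lamb1 and 5.47 against 4.18 for Lamc1, differences of 1.62, 1.44 and 1.29. Those 3 are the chains of a single laminin trimer, and each differed by over 2-fold, as did 18.9% of all genes. Lama5 differed by 0.86 (5.30 against 4.44), Hspg2 by 0.73 (3.97 against 3.24) and Sparc by 0.63 (8.02 against 7.40). Nid2 differed by 0.55, Nid1 by 0.33 and Lamb2 by 0.31, while the median of all genes differed by 0.07. With 2 arrays of each code these are values without a test. The same LSFF arrays had endoderm sums of 61.2 and 58.8, against 7.28 and 15.9 on the LS arrays, with 12 of 14 endoderm genes higher, among them Gata4 by 2.00, Gata6 by 2.82 and Sox17 by 3.58. Sox17 was above background on only 1 of the 2 LS arrays. Pdgfra and Dab2 were higher by only 0.13 and 0.01, and the 2 lower endoderm genes were Thbd at -1.76 and Plat at -0.13. The endoderm sums rested most on Krt19, which averaged 5.63 on the LSFF arrays and 2.94 on the LS arrays. Their fibroblast sums were 30.5 and 29.1, against 140 and 111 on the LS arrays, with all 20 genes lower, Col1a1 by a difference of -2.97. The trophectoderm sums were 12.2 and 13.8, against 7.23 and 5.68 on the LS arrays, with 6 of 8 genes higher (median difference 1.54, with Hand1 at 2.79 and Plac1 at 3.44). The 2 lower genes were Cdx2 at -2.76 and Tfap2a at -1.56, and Elf5, among the higher ones, was above background on 0 of these arrays. Of the naive pluripotency genes 4 of 5 were lower (median -0.72). The part of each of these cell types in the differences of the 9 genes was not tested. Among ground-state arrays, where 1 array of each group lay on slide 2, that array minus the mean of the slide 1 arrays ran from -0.26 (Lamb1) to 0.80 (Lamc1) in 2iSB_LIF, with 7 of the 9 genes higher on slide 2, and from -0.20 (Hspg2) to 0.64 (Lamb1) in 2i_LIF, with 4 higher.

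Lama1 and Lama5, Lamb1 and Lamb2, and Nid1 and Nid2 can take the same place in a basement membrane. Whether the members of a pair differed by unequal amounts was tested on the values already described, so these tests are not independent of the calls above. For each array the log2 signal of one gene of a pair was subtracted from that of the other, which leaves out whatever scales the whole array, and the groups were set against each other with an exact two-sided permutation test. The log2 ratio of Lama1 to Lama5 was higher by 6.21 in 2iSB_LIF than in EpiSC (73.8-fold; SD 0.66 and 0.45, n = 4 each, exact p = 0.0286) and by 6.80 in 2i_LIF than in EpiSC (112-fold; SD 0.17 and 0.45, exact p = 0.0286). This ratio differed by -5.50 in EpiSC against LIF_serum (45.4-fold) and by 1.30 in 2i_LIF against LIF_serum (2.46-fold), each at an exact p of 0.0286, and by 0.70 in 2iSB_LIF against LIF_serum (exact p = 0.114). The ratio of Lamb1 to Lamb2 differed by -3.10 in 2iSB_LIF and -2.69 in 2i_LIF against EpiSC, and by -3.39 and -2.98 against LIF_serum, all 4 at the same exact p. For the alpha pair against EpiSC that p was fixed in advance, since ground-state arrays lay above EpiSC for Lama1 and below it for Lama5. These 4 beta results also followed from the single genes. Lamb1 read at most 2.78 on ground-state arrays and at least 4.37 on the others, while Lamb2 ran only from 0.41 to 1.40. In EpiSC against LIF_serum the beta pair differed by -0.29 (exact p = 0.457). The ratio of Nid1 to Nid2 was higher by 1.05 in EpiSC than in LIF_serum (exact p = 0.0286). In 2iSB_LIF and 2i_LIF against EpiSC the nidogen values were -0.79 (exact p = 0.0857) and -0.75 (exact p = 0.171). An exact p of 0.0286 is the smallest that 4 arrays against 4 can give. After adjustment over the 18 tests the 9 results at that minimum had an adjusted p of 0.057, so none passed 0.05. The alpha pair difference in 2iSB_LIF against LIF_serum was 0.02 on slide 2 alone.

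**Figure D4:**
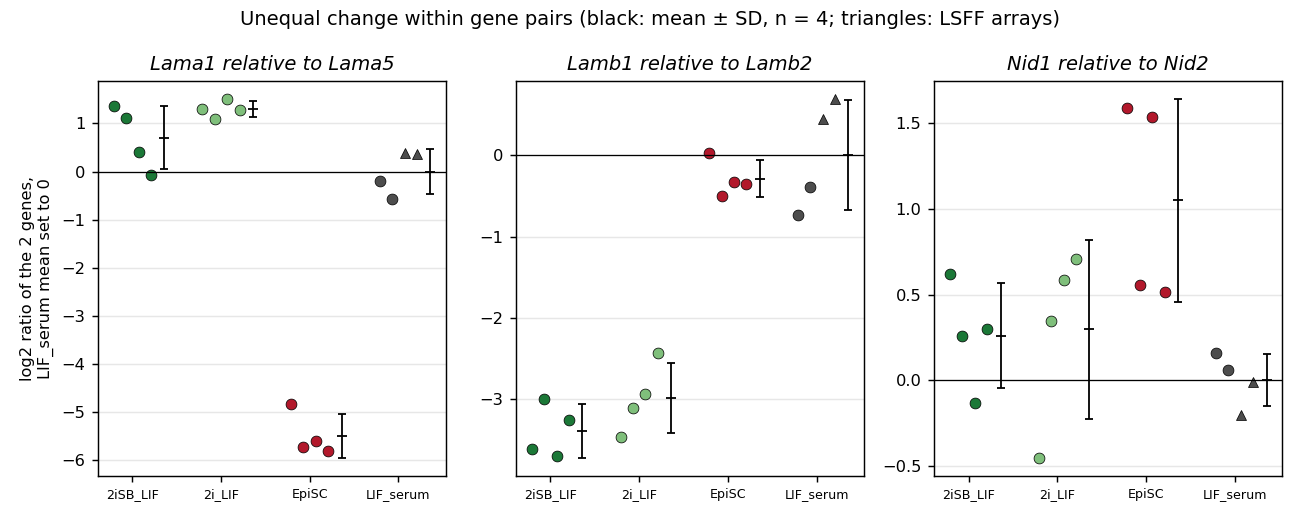
Log2 ratio of Lama1 to Lama5, Lamb1 to Lamb2 and Nid1 to Nid2 on each array (vertical axis, with the LIF_serum mean of each pair set to 0), by group. EpiSC arrays lie far below the others for the alpha pair, and ground-state arrays lie below EpiSC and LIF_serum arrays for the beta pair.

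The lines kept with SB431542 and the lines kept in 2i and LIF alone are separate lines. Between them none of the 9 genes was called, where 0.0838% of all genes were called, so that 0 of 9 is no result about these genes. For 2iSB_LIF against 2i_LIF the log2 differences were -0.29 for Lama1 (95% interval -1.12 to 0.54), 0.30 for Lama5 (-0.27 to 0.87), -0.49 for Lamb1 (-1.20 to 0.23) and -0.08 for Lamb2 (-0.42 to 0.26). They were -0.13 for Lamc1 (-0.80 to 0.54), -0.14 for Nid1 (-0.66 to 0.37) and -0.10 for Nid2 (-0.48 to 0.29). Hspg2 differed by 0.37 (-0.06 to 0.80) and Sparc by -0.26 (-0.69 to 0.16). Every limma adjusted p was 1. A 2-fold change in either direction is outside the interval for 7 of the 9 genes, and for Lama1 and Lamb1 a fall of that size is inside it. The only call under any setting was Lamb1 on slide 2, where 1 array of 2iSB_LIF and 1 of 2i_LIF differed by -1.16, and on slide 1 the difference was -0.26.

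The rest of the pathway was described over lists of genes with known roles. Of 5 other laminin chains, 1 was called higher and 4 lower in 2iSB_LIF against EpiSC, 1 higher and 2 lower in 2i_LIF against EpiSC, 2 lower in each against LIF_serum, and 2 higher and 1 lower in EpiSC against LIF_serum. Of all genes tested 36.3%, 37.4%, 20.1%, 18.3% and 33.6% were called in these comparisons, in the same order, and the counts of this list and of those that follow are to be read beside those shares. Their median differences were -1.71, -1.37, -0.68, -0.64 and 0.52, for 2iSB_LIF and 2i_LIF against EpiSC, 2iSB_LIF and 2i_LIF against LIF_serum, and EpiSC against LIF_serum. With signals not well above background raised to the array's lowest signal called above background, these medians were -1.71, -1.37, -0.53, -0.89 and 0.31. Lama3, an alpha chain of skin, was the 1 that went with Lama1: it was 1.45 and 1.68 higher in 2iSB_LIF and 2i_LIF than in EpiSC, and its difference in EpiSC against LIF_serum was -1.07. Lama4, an alpha chain of vessels and mesenchyme, was above background on 0 of the 4 2iSB_LIF arrays, 2 of the 4 2i_LIF arrays and all arrays of EpiSC and LIF_serum, and was at least 67.2-fold lower in 2iSB_LIF than in EpiSC. That bound sets the mean of the bright group against the higher of the dim arrays' own signal and the lowest signal called above background. Lama2 and Lamc3 were above background on only some arrays of 3 groups.

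Other basement membrane components were called mostly lower in the ground-state lines. Of 23 genes listed, 19 were tested, and 12 were called lower and 1 higher in 2iSB_LIF against EpiSC, 13 lower and 1 higher in 2i_LIF against EpiSC, 10 lower and 0 higher in each against LIF_serum, and 7 higher and 1 lower in EpiSC against LIF_serum. The medians were -2.04, -2.11, -1.33, -1.51 and 0.60, and -1.91, -2.05, -1.33, -1.35 and 0.60 with dim signals raised in the same way. Col4a1, a chain of the type IV collagen network, read -1.32, -2.07, -2.16 and -1.45 in 2iSB_LIF and -1.47, -1.21, -1.09 and -1.22 in 2i_LIF. It read 2.92, 2.87, 3.06 and 2.29 in EpiSC and -0.06, -0.12, 2.95 and 2.77 in LIF_serum. All ground-state arrays were the lowest, the LS arrays came next, and the LSFF arrays were at the level of EpiSC. Col4a1 was 23.1-fold lower in 2iSB_LIF and 16.4-fold lower in 2i_LIF than in EpiSC, and Col4a2, its partner chain, 23-fold and 21-fold lower. Pxdn, the peroxidase that cross-links type IV collagen, was 64.4-fold lower in 2i_LIF than in EpiSC and 2.30 higher in EpiSC than in LIF_serum on the log2 scale. Fbln2, a fibulin that binds laminin and nidogen, was 35.5-fold lower in 2iSB_LIF and 44.3-fold lower in 2i_LIF than in EpiSC. Smoc1, a calcium-binding relative of Sparc in basement membranes, was the gene called higher: it was 2.62 and 2.63 higher in 2iSB_LIF and 2i_LIF than in EpiSC, and its difference in EpiSC against LIF_serum was -1.88. Agrn, the heparan sulfate proteoglycan agrin, did not pass the test between EpiSC and LIF_serum (0.24, adjusted p = 0.25). Fras1, of the sheet that anchors epithelia to dermis, was above background on no ground-state array and was at least 16.6-fold lower in 2iSB_LIF and at least 12.7-fold lower in 2i_LIF than in EpiSC. Col4a3, Col15a1, Egflam and Hmcn1 did not pass the filter on dim signal.

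Of 10 laminin receptors, 2 were called higher and 5 lower in each ground-state group against EpiSC, and 3 higher and 1 lower in EpiSC against LIF_serum. The 2 of 10 higher are close to the 16.2% and 16.8% of all genes called higher against EpiSC, where 20.1% and 20.6% were lower. Against LIF_serum 1 was higher and 2 lower in 2iSB_LIF, and 1 higher and 3 lower in 2i_LIF. The medians were -1.11, -1.02, 0.49, -0.32 and -0.49 for 2iSB_LIF and 2i_LIF against EpiSC, EpiSC against LIF_serum, and 2iSB_LIF and 2i_LIF against LIF_serum. Itga3, the integrin alpha chain that prefers laminins with Lama5 or Lama3, was 14.6-fold lower in 2iSB_LIF and 21.6-fold lower in 2i_LIF than in EpiSC. Itgb1, the beta chain it pairs with, was 3.88-fold lower in each. Itga7, a laminin-binding chain of muscle, differed by -2.85 in 2i_LIF against EpiSC. The 2 higher genes were Itgb4, the beta chain of hemidesmosomes, by 1.38 and 1.16, and Sdc4, a heparan sulfate receptor that binds laminin, by 1.67 in 2i_LIF. Sdc4 was also called higher in 2iSB_LIF (1.18) and 2i_LIF (1.09) than in LIF_serum. Itga6, the main laminin-binding integrin chain of embryonic stem cells, and Dag1, dystroglycan, were not called between EpiSC and LIF_serum (-0.43 and 0.18).

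Of 10 chaperones and enzymes that fold and modify matrix proteins, 7 were called lower and 0 higher in 2iSB_LIF and 8 lower and 0 higher in 2i_LIF against EpiSC, 4 lower in each against LIF_serum, and 4 higher in EpiSC against LIF_serum. The medians were -1.17, -1.15, -0.82, -0.83 and 0.71. Serpinh1, the collagen chaperone Hsp47, was 16.1-fold lower in 2i_LIF than in EpiSC and 2.50 higher in EpiSC than in LIF_serum (SE 0.23, limma adjusted p = 4.4e-07). Loxl2, a lysyl oxidase that acts on type IV collagen, differed by -5.11 in 2i_LIF against EpiSC and by 1.89 in EpiSC against LIF_serum. Of 7 relatives of Sparc 5 were tested, of which 3 were called lower and 1 higher in each ground-state group against EpiSC, 3 lower in 2iSB_LIF and 2 lower and 1 higher in 2i_LIF against LIF_serum, and 2 higher and 1 lower in EpiSC against LIF_serum. Their medians were -3.02, -1.13, -1.36, -1.05 and 0.71. Fstl1, a secreted protein with a Sparc-like domain, was called lower in 2i_LIF than in EpiSC with a difference of -4.01. In 2iSB_LIF against 2i_LIF 0 genes of these 5 lists were called by limma. The lists overlap in Smoc1 and Smoc2. Many of these genes, among them the collagens and Serpinh1, are also made by fibroblasts, whose marker values are given above, and that part was not tested.

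**Figure D5:**
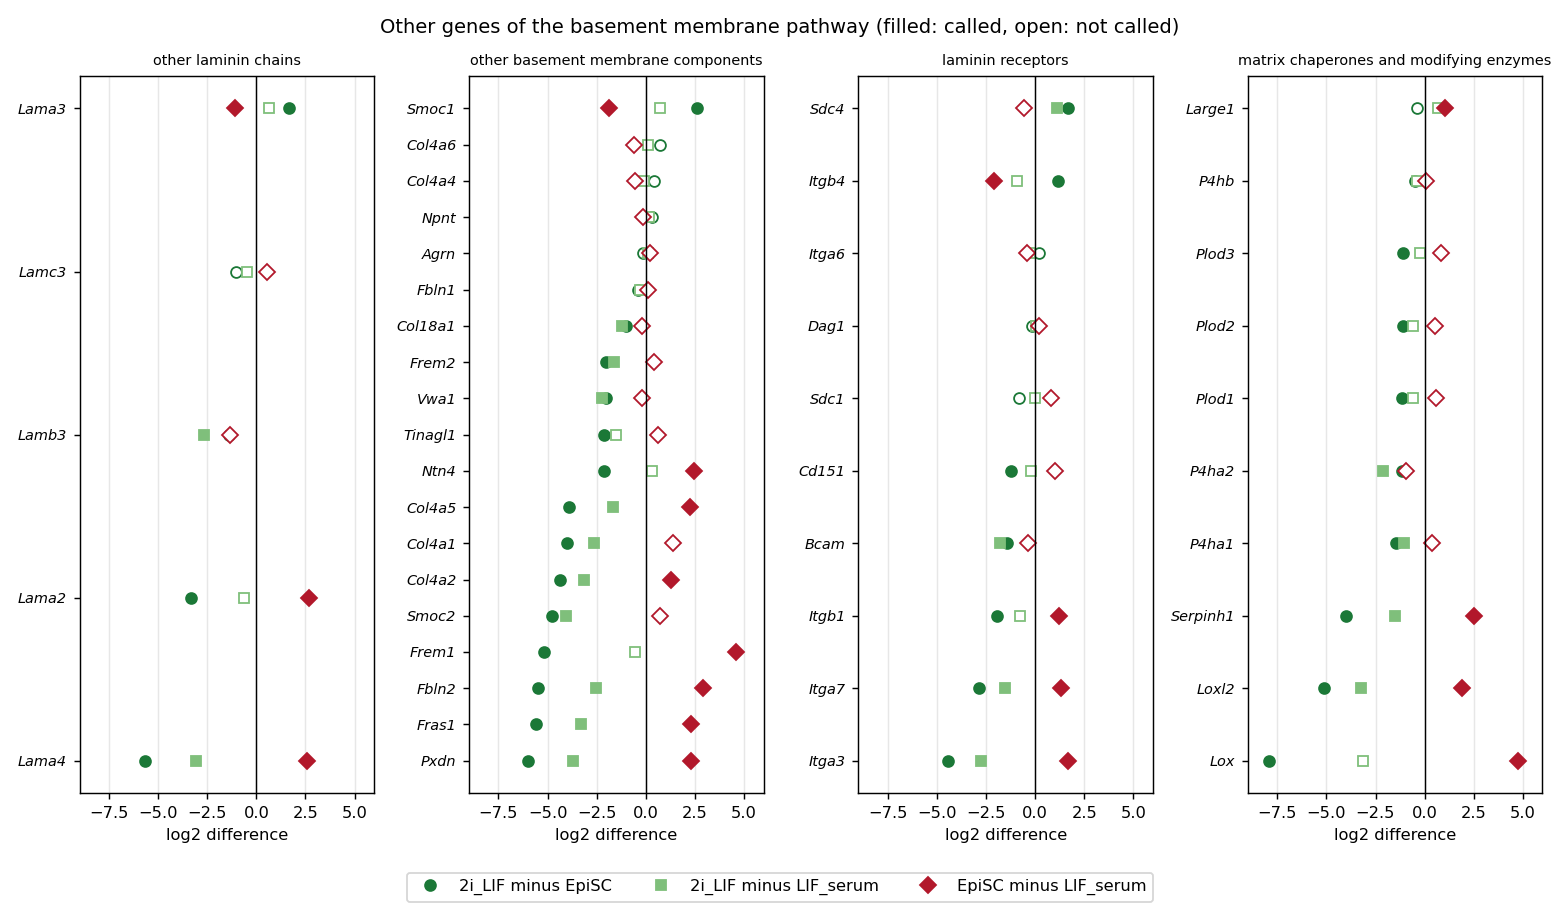
Log2 difference (horizontal axis) of each tested gene of 4 lists (other laminin chains, other basement membrane components, receptors, chaperones and enzymes) for 2i_LIF minus EpiSC (circles), 2i_LIF minus LIF_serum (squares) and EpiSC minus LIF_serum (diamonds); filled symbols were called. Most filled circles lie left of 0, and those of Lama3, Smoc1, Itgb4 and Sdc4 lie to the right.

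Some genes of the array followed a member closely over the 16 arrays. Likeness was measured as the root mean square difference of the log2 signals after each gene's own mean was subtracted, beside the spread of the member itself over the same 16 arrays. The nearest to Lama1 were Ephx2 at 0.47, Oas2 at 0.50 and Padi6 at 0.51, beside a spread of 2.12. The nearest to Lamb1 were Psmb10 at 0.43, Cnn2 at 0.45 and Adamts19 at 0.46, beside 1.66. For Lama5 they were Adam8, Sh3bgr and H1f2, at 0.27 to 0.32 beside 1.00. For Nid2 they were Baz2a, Parp1 and Rps6ka1, at 0.16 to 0.18 beside 0.67. Hspg2 (Atl2 and Myh9, each at 0.20 beside 0.65) and Sparc (Myh9, Myl6 and Klhl21, 0.24 to 0.25 beside 0.71) shared Myh9. Lamb2, Lamc1 and Nid1 varied by 0.27, 0.41 and 0.47, so that closeness to them says little: their nearest genes were Dync1h1 at 0.13, Adi1 at 0.20 and Pidd1 at 0.22. Among the 9 genes themselves, Hspg2 and Sparc were closest at 0.33 and Lama1 and Lamb1 farthest apart at 3.19, farther than Lama1 and Lama5 at 2.74. These are descriptions over arrays that share 4 group means.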

How the data were processed

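RNA of 16 lines was measured on 16 single-colour arrays. The scanner files deposited by the authors hold intensity values from Agilent Feature Extraction 10.7.1.1, per the file headers, and the processed signal in them is background-subtracted and detrended but not normalized between arrays. The authors also deposited a table of log2 values, made with limma and Feature Extraction per the submitters' processing notes; the base is taken from the values, and how they were normalized is not stated. It holds 42316 of 55681 probes, follows the scanner values with a slope of 0.891 (r = 0.976 over 23854 probes), and served as an alternative.

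Of 62976 spots on an array, 3671 controls were left out, and 0 were saturated. Outlier spots (100 to 321 an array) were set to missing. Repeated spots of 432 probes were averaged. Probes were named through RefSeq accessions and the GRCm38.p6 annotation (27656 probes, 20972 symbols), while the array header names mm9, so no probe coordinates are given. The coordinates of the promoter windows are those of GRCm38.p6. Values are log2 of the signal less the array's 75th percentile, which lay between 646 and 1040. A probe was tested if well above background, by the scanner software's flag, on all 4 arrays of a group, and the brightest stood for its gene. Group means over all 16 arrays were fitted with limma 3.58.1 (lmFit, eBayes) in R 4.3.3, with data.table (1.17.8) and jsonlite (2.0.0). The 9 genes were all named. Of the pathway lists, called genes were named, though some of larger difference were passed over. As genes of like pattern the 3 nearest to a member with a standard symbol were named, or the nearest for genes of small spread. Agrn, Itga6, Dag1, Lama2 and Lamc3 were named after their values were seen. A gene of like pattern and a listed gene are not reported here.

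On simulated data for EpiSC against LIF_serum (15517 genes), 74% of changes of 1.5 and 93% of changes of 2.5 on the log2 scale were recovered, with 5 false calls. No column was left unmapped. The number of arrays limits the precision. Normexp used the median signal, since the files hold no mean signal column; this and the splits of LIF_serum by code were chosen after seeing the data. The labels do not say whether line numbers pair lines across groups, and no pairing was used. Same-numbered lines correlated at -0.595 to 0.403 over 24 pairs, with 7 over 0.1. Of these pairs 12 shared a slide, so the correlations cannot settle whether lines are paired. The 9 genes and the lists were chosen with earlier results of these data known. No promoter entry was matched for Lama1, Lamc1 and Nid2.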

Additional observations from a re-analysis of the deposited data

Results flagged for a closer look

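Lama1 on 2iSB_LIF array 4 stood apart from its group. It read 3.35 on the log2 scale, against 4.16 for the nearest of the other 3 arrays, and that gap was 0.831 of the range of the group, just above Dixon's 95% critical value for 4 samples. It was 1 of 36 groups tested (9 genes in 4 groups), and chance flags about 1 in 20. Without this array Lama1 was still called higher in 2iSB_LIF than in EpiSC, by 4.55.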

How the results depend on the processing

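Of 1131 values of single genes under another setting, 1050 kept their direction and their side of the threshold, 45 changed sign, 20 lost a call and 16 gained one. The calls of Lama1 and Lamb1 held under every alternative and with each line left out. The number of arrays, 4 a group on 2 slides, limits all comparisons, and where a value below changed the cause was not tested.

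Sign changes fell on differences that were not called. In 2iSB_LIF against 2i_LIF on slide 2, Lama1 was 0.09, Lamb2 0.11, Lamc1 0.28 and Nid2 0.25, and on slide 1 Nid1 was 0.01. Against EpiSC, Lamc1 was -0.48 in 2iSB_LIF and -0.38 in 2i_LIF under median centring, and Nid1 was -0.07 and 0 by its dimmest probe. For 2iSB_LIF against LIF_serum, Lamb2 was -0.07 and Nid2 0 with the LSFF arrays alone, and Lamc1 was 0.63 with the LS arrays alone, 0.06 with passage number, 0.43 on slide 1 and 0.19 with slide as a block. For 2i_LIF against LIF_serum, Lama1 was 0.27 (LS) and 0.31 (slide 1), Lamb2 -0.06 (slide 2) and Lamc1 -0.54 (LSFF) and -0.34 (slide 2). For EpiSC against LIF_serum, Lama5 was -0.08 and Lamb1 -0.47 (LSFF, and slide 2, the same arrays), Lamb1 -0.10 (slide block), Lamc1 0.59 (LS) and 0.48 (median), and Nid1 0.36 (median) and 0.28 (dimmest probe).

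With 1 line left out, the ranges that crossed 0 were -0.15 to 0.02 for Lamb2 and -0.33 to 0.01 for Lamc1 in 2iSB_LIF against 2i_LIF, -0.16 to 0.17 for Lamc1 in 2iSB_LIF against EpiSC, -0.01 to 0.18 for Lamb2 and -0.24 to 0.20 for Lamc1 in 2iSB_LIF against LIF_serum, -0.12 to 0.33 for Lamc1 in 2i_LIF against LIF_serum, and 0 to 0.49 for Lamb1 and -0.28 to 0.17 for Lamc1 in EpiSC against LIF_serum; the nidogen ratio in 2iSB_LIF against 2i_LIF ran from -0.30 to 0.09. Hspg2 lost its call in 2i_LIF against LIF_serum in 4 of 8 such fits (-0.98 to -0.86, without 2i_LIF replicate 3 or 4 or LIF_serum replicate 3 or 4). Sparc in 2i_LIF against LIF_serum (-1.02) and Lama1 in 2iSB_LIF against LIF_serum (-1.18) gained one without LIF_serum replicate 2, and Nid1 in 2i_LIF against EpiSC (1.10) without 2i_LIF replicate 1.

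Counts moved as follows. Genes called between 2iSB_LIF and 2i_LIF, 13 in all, were 3 with only those 2 groups, 46 with passage number, 2 on slide 1, 2236 on slide 2 (1 array each), and 11 to 27 with 1 line left out (27 without 2iSB_LIF replicate 1). Genes called in 2iSB_LIF against LIF_serum, 3115 in all, were 1901 with passage number, 1761 on slide 1 and 4969 on slide 2, and in 2i_LIF against LIF_serum, 2841 in all, 1687 on slide 1. Of the 9 genes, 5 were called lower in either ground-state group against the LSFF arrays alone, 5 in 2i_LIF against LIF_serum on slide 2, and 1 in 2iSB_LIF against 2i_LIF on slide 2. Median centring gave 1 higher in 2iSB_LIF against EpiSC, and 3 higher and 1 lower in EpiSC against LIF_serum, where the LS arrays alone gave 1 lower. On slide 2 alone the ratio of Lamb1 to Lamb2 differed by -1.27 and that of Nid1 to Nid2 by -0.85 in 2iSB_LIF against 2i_LIF, the alpha ratio by 0.02 and the beta ratio by -4.26 in 2iSB_LIF against LIF_serum, and the beta ratio by -2.14 in 2i_LIF against EpiSC.

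With the replicate number as a block, 8 genes were called between 2iSB_LIF and 2i_LIF in place of 13. The block moved no other count by over 1.5 times and changed no call of the 9 genes. Whether the numbers pair the lines is not known.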
